A study of Mus musculus with 62 samples.

Results

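A set of 9 genes of NAD synthesis and consumption were followed in the diaphragm of tumor-bearing mice. They are the nicotinamide riboside kinases Nmrk2 and Nmrk1, the salvage enzyme Nampt, the adenylyl transferases Nmnat1 and Nmnat3, the mitochondrial NAD kinase Nadk2, the nicotinamide methyltransferase Nnmt, and the NAD-consuming enzymes Sirt1 and Cd38. These 9 genes were taken by name from 47643 genes measured by RNA-seq, and all 9 passed the filter on low values that left 13578 genes. The list was selected on these data: Nmrk2 was chosen for the largest fall in cachectic muscle. That fall was largest at 8 weeks, so the 8-week values of the 9 genes in cachectic mice are described without a test. The choice may also have drawn on the other weeks, so p-values and ranks of Nmrk2 at those weeks may not be independent of it. The mice were female, and the methods give an age of 2 months when they were purchased. Cachectic mice were injected with cells of a cachectic melanoma xenograft, non-cachectic mice with cells of a melanoma xenograft that does not cause wasting, and control mice received a mock injection. Diaphragms were taken 2, 4, 6 and 8 weeks post injection from 5 mice in each of 11 conditions and from 7 cachectic mice at 8 weeks, which gives 62 libraries of 1 mouse each. The sample labels give the strain as C57BL6/J, while the design text and the methods describe immunodeficient NCI Ath/nude mice. Each xenograft stands for 1 patient-derived tumor, so a difference between cachectic and non-cachectic mice is also a difference between 2 tumors.

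NAD carries electrons in energy metabolism and is also the substrate of enzymes that consume it. Muscle cells renew most of it by salvage: Nampt turns nicotinamide into nicotinamide mononucleotide, the riboside kinases make the same nucleotide from nicotinamide riboside, and the adenylyl transferases complete NAD. Nmrk2 is known as the riboside kinase of striated muscle, whereas Nmrk1 is expressed in many tissues. Sirtuins use NAD to remove acyl groups from proteins, Cd38 splits it, and Nnmt methylates nicotinamide, which takes it out of the salvage route.

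Nmrk2 lies on the minus strand of GRCm38 at chr10:81198170-81202051 and Nampt on the plus strand at chr12:32819545-32853349 (GENCODE M21). The 250 bases before the RefSeq start of these genes are shown, on the strand of the gene, because these are the members whose levels moved most clearly in opposite directions. Each sequence was read from the RefSeq promoters of GRCm38.p6, at chr10:81202038-81202287 for Nmrk2 and chr12:32820085-32820334 for Nampt. Capitals mark the motif CANNTG, the E-box read by basic helix-loop-helix factors, and the motif TATAAA, both searched on both strands.
Nmrk2: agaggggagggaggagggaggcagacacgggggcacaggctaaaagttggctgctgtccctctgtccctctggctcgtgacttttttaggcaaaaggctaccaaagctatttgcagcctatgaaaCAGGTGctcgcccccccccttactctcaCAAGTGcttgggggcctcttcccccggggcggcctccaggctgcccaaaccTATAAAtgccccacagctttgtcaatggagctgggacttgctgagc
Nampt: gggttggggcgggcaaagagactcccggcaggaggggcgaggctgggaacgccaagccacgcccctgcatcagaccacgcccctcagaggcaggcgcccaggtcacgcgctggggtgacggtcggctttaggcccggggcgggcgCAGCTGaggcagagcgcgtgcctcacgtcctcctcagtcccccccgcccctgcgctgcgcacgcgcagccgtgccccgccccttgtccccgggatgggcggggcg
The Nmrk2 window held 2 CANNTG words, which begin 125 and 97 bases before the start, and 1 TATAAA word that begins 46 bases before it. The Nampt window held 1 CANNTG word, 105 bases before the start, and no TATAAA. Of 32851 promoters of the same length, 66.22% held CANNTG and 12.37% held TATAAA. Of the Nmrk2 window, 14 bases lie in a GENCODE exon of the gene, and the Nampt window lies inside the GENCODE span of its gene but outside the exons. The GC content was 58.8% in the Nmrk2 window and 75.6% in the Nampt window. A match of letters is a description of the window and not a site of binding.

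The libraries were checked before the genes were compared. All 12 markers of skeletal muscle were above 0 in every mouse, as the labelled tissue would have them. Depth in reads is unknown, since the values are TPM (transcripts per 1000000), a unit scaled to gene length and library total. Libraries of 4 mice stood apart with 15069 to 16389 genes above 0, against 17909 to 19057 in the others, and with 54.4 to 61.5% of TPM from mitochondrial genes, against 32.5 to 50.1%. They are cachectic mice 3 and 4 and non-cachectic mouse 5 at 2 weeks, and cachectic mouse 3 at 8 weeks. Another 4 mice, controls 2, 4 and 5 at 2 weeks and cachectic mouse 5 at 6 weeks, had the highest levels of 10 liver markers, with a mean log2(TPM + 1) of 8.10 to 10.30 against at most 7.58 in the others.

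In the 20 control mice, Nmrk2 was the most abundant of the 9 genes, with 115.7 ± 31.3 TPM (SD, n = 20). Nampt followed with 86.4 ± 9.88 TPM, and Nmrk2 was the higher of this pair in 17 of the 20 mice. Nadk2 had 25.3 ± 2.79 TPM and Nmnat1 had 15.4 ± 1.73 TPM, and the ranges of Nampt, Nadk2 and Nmnat1 did not overlap. Cd38 had 7.55 ± 1.92 TPM, Sirt1 5.396 ± 0.629, Nmnat3 4.59 ± 1.15, Nnmt 4.49 ± 3.69 and Nmrk1 2.02 ± 0.796 TPM. Each of these last genes overlapped in range with its neighbor in the order, and the upper end of Cd38 overlapped the lower end of Nmnat1. As fold changes of condition means, Nmrk2 varied 8.02-fold between its lowest and highest condition, and Nampt varied 1.90-fold.

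**Figure D1:**
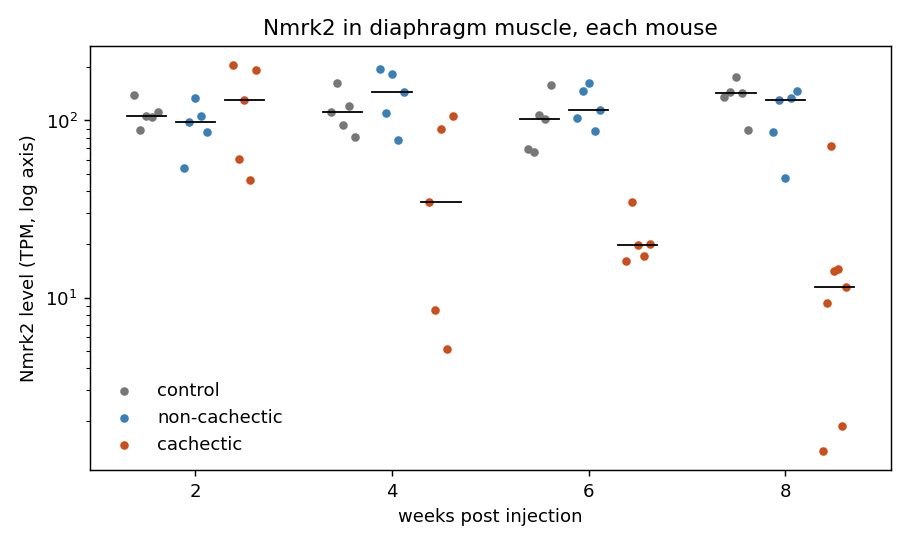
Nmrk2 level of each mouse (TPM, log axis) by weeks post injection, with 5 mice per condition and 7 in cachectic mice at 8 weeks. Horizontal lines are medians. Cachectic mice spread on both sides of the other groups at 2 weeks, are split at 4 weeks, and lie below every control mouse at 6 and 8 weeks.

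At 2 weeks, Nmrk2 levels in cachectic mice were 205.1, 60.5, 130.1, 46.3 and 193.0 TPM. Control mice had 139.8, 88.3, 105.6, 104.1 and 111.9 TPM, and non-cachectic mice had 53.7, 97.4, 133.9, 105.3 and 85.8 TPM. The groups overlapped, and the cachectic mice spread on both sides of the controls. The difference of log2(TPM + 1) was -0.01 against control mice (SE 0.562, adjusted p = 0.987 by limma) and 0.24 against non-cachectic mice (adjusted p = 0.796).

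At 4 weeks, cachectic mice had 34.5, 8.54, 89.4, 5.09 and 106.6 TPM of Nmrk2. Control mice had 111.4, 163.5, 94.1, 120.5 and 81.1 TPM, and non-cachectic mice 195.8, 110.2, 182.8, 77.5 and 145.3 TPM. Cachectic mice 1, 2 and 4 lay below every mouse of the other groups, while mice 3 and 5 lay within their range. The log2 difference was -1.95 against control mice (SE 0.562, unadjusted p = 0.00102, adjusted p = 0.289 by limma) and -2.23 against non-cachectic mice (adjusted p = 0.136), so it did not pass the test. None of the 9 genes was called in either comparison at 4 weeks, where 0.0221% and 0.0295% of all genes tested were called. In each of these comparisons 1 of the 9 genes, Nmrk2, had an unadjusted p under 0.05, and Dunn's test called 0. Against control mice Dunn's test also called 0 of all 13578 genes. The limma call of Nmrk2 was reached without the 4 libraries with the fewest genes (adjusted p = 0.0313 against control mice, where 251 of all genes were called). Against non-cachectic mice it was also reached without cachectic mouse 5 (log2 difference -2.71, adjusted p = 0.0358).

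At 6 weeks, Nmrk2 fell in cachectic mice against both other groups. Cachectic mice had 16.1, 34.5, 19.9, 17.2 and 19.98 TPM. Control mice had 69.4, 66.7, 107.9, 102.2 and 158.9 TPM, and non-cachectic mice 103.7, 145.8, 163.4, 87.7 and 114.6 TPM. All 5 cachectic mice lay below all mice of both other groups, and the means of 21.5, 101 and 123 TPM correspond to levels 4.69-fold lower than in control and 5.72-fold lower than in non-cachectic mice. The log2 difference was -2.16 against control mice (SE 0.562, adjusted p = 0.0108 by limma) and -2.48 against non-cachectic mice (adjusted p = 0.00359). These 2 comparisons share the cachectic mice, and they may not be independent of the choice of Nmrk2. By size of the log2 difference, Nmrk2 was the 2nd lowest of 13578 genes against control mice and the 3rd lowest against non-cachectic mice. The call was kept without any 1 of the 10 mice in each comparison, and it was lost only under Dunn's rank test (adjusted p = 0.161 and 0.119), which called 0 of 13578 genes in either comparison. The change of the cachectic versus control difference from 4 to 6 weeks was -0.20 (SE 0.795, adjusted p = 1 by limma), and its sign turned without cachectic mouse 3 (0.21) or mouse 5 (0.27) at 4 weeks.

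At 8 weeks, the time of the largest fall, for which Nmrk2 was chosen, levels in the 7 cachectic mice were 1.36 TPM at the lowest, 11.5 TPM at the median and 71.5 TPM at the highest. Control mice had 136.1, 144.7, 176.7, 142.3 and 88.7 TPM, and non-cachectic mice 86.6, 131.1, 47.1, 134.3 and 146.5 TPM. All 7 cachectic mice lay below every control mouse, and 6 of 7 lay below every non-cachectic mouse. The exception, mouse 3, is the 8-week library with few genes, and the other 6 mice had at most 14.5 TPM. The log2 difference to the control mice was -3.68 and that to the non-cachectic mice -3.27, and without mouse 3 these were -4.14 and -3.73.

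No difference of Nmrk2 between non-cachectic and control mice passed the test in any week, with log2 differences of -0.25, 0.28, 0.32 and -0.41 at 2, 4, 6 and 8 weeks (SE 0.562, adjusted p from 0.813 to 1 by limma). That SE pools the spread of all conditions, cachectic mice included. The SD of log2(TPM + 1) was 0.24 to 0.67 in the conditions of these groups. It was 1.87 and 1.66 in cachectic mice at 4 and 8 weeks. None of the 9 genes was called between these groups in any week, against 4.43% of all genes at 2 weeks and 0.0% at 4, 6 and 8 weeks. Across the 4 weeks only Cd38 at 4 weeks had an unadjusted p under 0.05 among the 9 genes, with a log2 difference of -0.51 (adjusted p = 1 by limma), and Dunn's test called 0.

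Nmrk2 shares exonic bases with Atcayos on the other strand. The kit named in the labels keeps strand, the one named in the methods does not, and whether strand was used in counting is not given in the sources used here, so reads of the pair may not be separable. At 6 weeks Atcayos ranged from 42.9 to 55.4 TPM in control and from 43.0 to 105.0 TPM in cachectic mice. Its medians in cachectic and control mice were 63.44 and 33.65 TPM at 4 weeks and 65.5 and 45.25 TPM at 6 weeks. At 8 weeks they were 62.25 and 36.53 TPM. These medians moved in the opposite direction to Nmrk2, with overlapping ranges. A part of shared reads in this was not tested. In a bulk sample, fewer cells that express a gene and less RNA per cell cannot be told apart.

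Nmrk1 (chr19:18631950-18652428), the other riboside kinase, stayed at low levels. At 6 weeks it had 2.22, 1.32, 2.32, 2.80 and 3.11 TPM in cachectic mice and 2.51, 1.87, 1.64, 2.07 and 1.71 TPM in control mice. The groups overlapped, with a log2 difference of 0.16 (SE 0.166, adjusted p = 0.636 by limma). As TPM is scaled to length, the pair can be set side by side. Nmrk2 made up 97.9 ± 0.970% of the summed TPM of both kinases in control mice at 6 weeks (SD, n = 5), 98.4 ± 0.385% in non-cachectic mice (n = 5) and 89.3 ± 4.18% in cachectic mice (n = 5). At 8 weeks its share in cachectic mice ranged from 39.8 to 98.3% (n = 7), against 97.7 to 99.2% in control mice, which is again a description. In the cachectic mice with the lowest share, Nmrk1 thus exceeded Nmrk2.

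Nampt, the rate-limiting enzyme of nicotinamide salvage, moved in the opposite direction. At 6 weeks cachectic mice had 156.7, 133.9, 118.0, 140.7 and 127.4 TPM. Control mice had 92.7, 101.5, 84.4, 96.2 and 81.9 TPM, and non-cachectic mice 101.2, 92.6, 90.9, 78.0 and 95.5 TPM. All 5 cachectic mice lay above all mice of both other groups. Nampt rose by 0.56 on the log2 scale against control mice (SE 0.176, adjusted p = 0.0406 by limma) and by 0.56 against non-cachectic mice (adjusted p = 0.0468), 1.48-fold in both. These calls were near the threshold. Against control mice the call was lost without cachectic mouse 1, 2 or 4 or without any 1 of the 5 controls, with log2 differences of 0.51 to 0.61 over all 10 fits and adjusted p of up to 0.143. Against non-cachectic mice it was lost without any 1 mouse except cachectic mouse 3 (adjusted p of up to 0.157). After median-ratio scaling between libraries the differences were 0.37 (adjusted p = 0.217) and 0.40 (adjusted p = 0.165). At 6 weeks the median of all genes was 0.17 above control and 0.14 above non-cachectic mice in the deposited TPM. Mitochondrial genes made up 34.3 to 44.9% of TPM in cachectic mice at 6 weeks. Their share was 44.9 to 47.9% in control and 43.2 to 47.9% in non-cachectic mice, and TPM share 1 total per library. The part of the shift of all genes, or of the mitochondrial share, in the differences of Nampt and other genes was not tested. Median-ratio scaling left Nmrk2 called.

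Nmrk2 and Nampt were therefore the 2 of 9 genes called at 6 weeks, 1 lower and 1 higher in each comparison. Of all genes, 6.79% were called in the first comparison and 5.85% in the second. The count of 2 includes Nmrk2, which was chosen for its fall, so it cannot show an excess over these shares. The call of Nampt was near the threshold, as given above. The median log2 difference of the 9 genes was 0.16 and 0.18, beside 0.17 and 0.14 over all genes tested. At 8 weeks Nampt had a median of 122.6 TPM in cachectic mice, from 57.2 TPM in mouse 3, the library with few genes, to 188.5 TPM. Control mice then had 74.0, 81.9, 83.3, 89.9 and 87.1 TPM, and 6 of 7 cachectic mice lay above all of them.

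**Figure D2:**
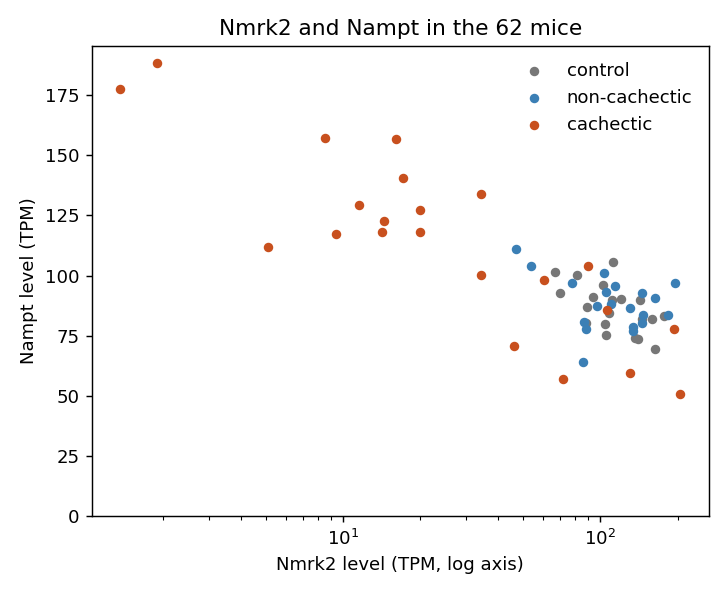
Nampt level (TPM) against Nmrk2 level (TPM, log axis) in the 62 mice, 1 point per mouse. Points of cachectic mice with the lowest Nmrk2 sit at the highest Nampt, up to 188.5 TPM, while control and non-cachectic mice lie between 63.9 and 111.0 TPM of Nampt.

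At 6 weeks Nampt exceeded Nmrk2 in 5 of 5 cachectic mice, 2 of 5 control and 0 of 5 non-cachectic mice. The ratio of Nmrk2 to Nampt was 1.14 ± 0.512 in control mice at 6 weeks, 1.35 ± 0.328 in non-cachectic and 0.162 ± 0.0596 in cachectic mice (SD, n = 5 each). Deviations from the condition means of log2(TPM + 1) ran in opposite directions in the pair: Pearson's r was -0.72 and Spearman's rho -0.53 (n = 62), and r was -0.68 without the 2 mice farthest from the median of Nmrk2. Pearson's r was -0.67 without the 4 libraries with the fewest genes (n = 58) and -0.47 in control and non-cachectic mice alone (n = 40). The points share the scaling of each library to 1 total, and no test is attached.

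Sirt1, an NAD-dependent deacetylase, lay higher in cachectic mice at 6 weeks without passing the test. At 6 weeks cachectic mice had 10.3, 10.97, 7.01, 8.32 and 6.88 TPM, and control mice 5.83, 5.31, 6.36, 4.54 and 5.41 TPM. All 5 cachectic mice lay above all controls and above all non-cachectic mice, which ranged from 5.44 to 6.39 TPM. The log2 differences of 0.56 (SE 0.208, adjusted p = 0.0905 by limma) and 0.48 (adjusted p = 0.188) did not pass the test. Both passed without the 4 libraries with the fewest genes (adjusted p = 0.00249 and 0.0104 by limma), with array weights and in fits of only the groups compared. Against control mice these settings called 4233, 6565 and 4030 of all 13578 genes, where the main fit called 922. At 8 weeks the cachectic mice ranged from 2.03 TPM in mouse 3 over a median of 7.55 to 10.9 TPM, and control mice from 4.66 to 6.27 TPM. Mice 1 and 6, with the lowest Nmrk2 at 8 weeks (1.36 and 1.89 TPM), had the highest Sirt1 (9.93 and 10.9 TPM) and the highest Nampt (177.7 and 188.5 TPM). Over the 62 mice, deviations of Sirt1 and Nmrk2 gave a Pearson r of -0.53 and a Spearman rho of -0.26, and in control and non-cachectic mice alone r was -0.15. Sirt1 lies at chr10:63319005-63381704 and shares exonic bases with Gm16145 on the other strand, which is listed at 0 in all mice.

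Cd38 (chr5:43868553-43912375), a glycohydrolase that splits NAD, had 11.7, 10.9, 11.2, 12.2 and 8.16 TPM in cachectic mice at 6 weeks. Control mice had 8.58, 6.46, 6.99, 7.50 and 7.43 TPM, so 4 of 5 cachectic mice lay above all controls. The log2 differences of 0.49 (SE 0.227, adjusted p = 0.206 by limma) and 0.47 against non-cachectic mice (adjusted p = 0.254) did not pass the test. Both passed with array weights (adjusted p = 0.00296 and 0.007 by limma) and in fits of only the groups compared, and the first also without the 4 libraries with the fewest genes (adjusted p = 0.0394). These settings called 6565, 4030 and 4233 of all 13578 genes against control mice, where the main fit called 922. At 8 weeks the means of Cd38 were 9.16 TPM in cachectic, 7.20 TPM in control and 9.36 TPM in non-cachectic mice. The log2 differences of the cachectic mice were then 0.24 and -0.09. Cd38 is abundant on immune cells. The summed TPM of 6 macrophage markers ranged from 90.6 to 145.3 in control and from 135.9 to 247.6 in cachectic mice at 6 weeks, that of 6 neutrophil markers from 3.35 to 11.2 and from 14.5 to 28.8, and that of 6 lymphocyte markers from 5.42 to 21.9 and from 2.83 to 18.2. In non-cachectic mice these sums were 92.1 to 257.4, 1.88 to 14.3 and 3.79 to 50.5. No macrophage marker was at 0 in any of these mice, while up to 3 of the neutrophil markers and 1 of the lymphocyte markers were. Their part in the values of Cd38, Nampt or Sirt1 was not tested.

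**Figure D3:**
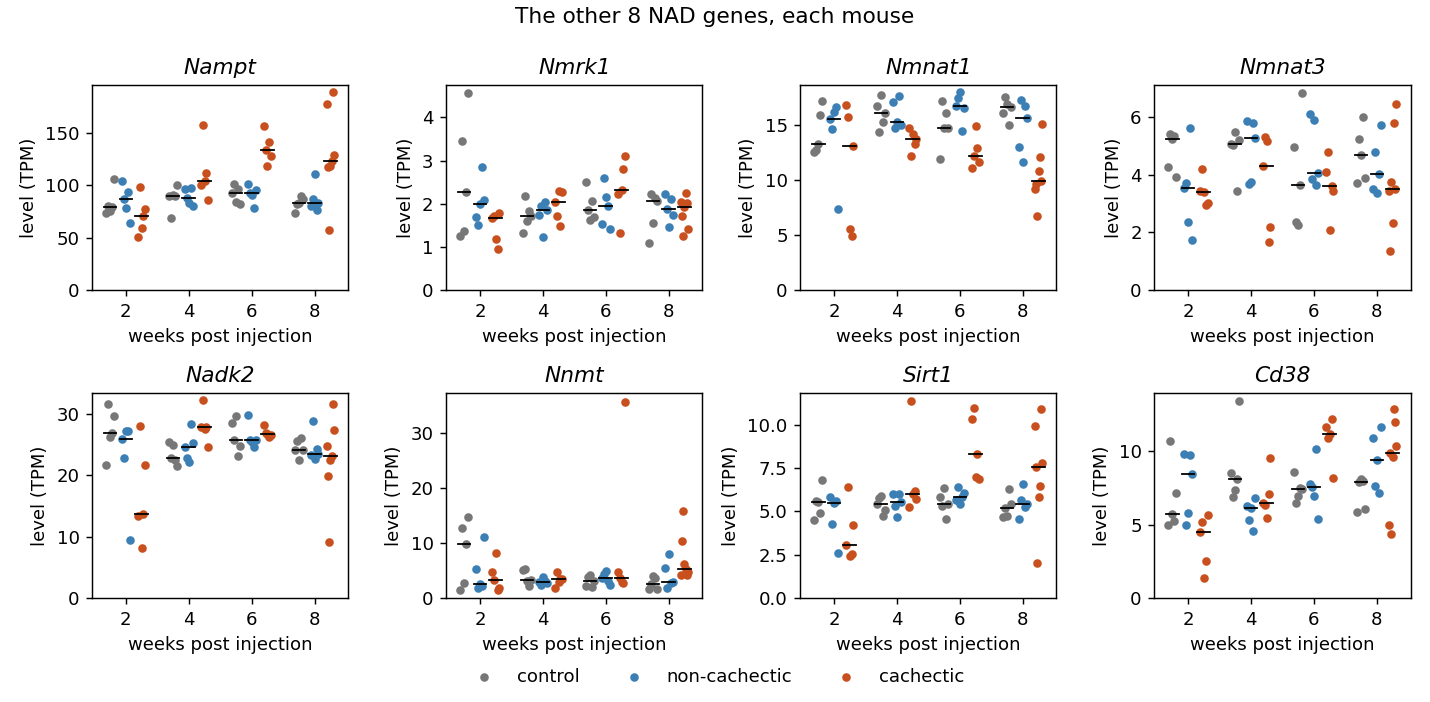
Levels of the other 8 NAD genes in each mouse (TPM, linear axes from 0) by weeks post injection and group. Horizontal lines are medians. Nampt and Sirt1 of the 5 cachectic mice at 6 weeks lie above all other mice of that week, and 1 cachectic mouse with 35.6 TPM stands alone in the plot of Nnmt.

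Nmnat1 (chr4:149467572-149485202), the nuclear adenylyl transferase, had 11.1, 12.2, 14.9, 12.9 and 11.7 TPM in cachectic mice at 6 weeks. Control mice had 11.95, 17.2, 14.7, 16.1 and 14.7 TPM, and non-cachectic mice 16.8, 17.4, 17.97, 14.5 and 16.6 TPM. The cachectic mice lay at the lower end, with log2 differences of -0.23 (SE 0.190, adjusted p = 0.532 by limma) and -0.38 (adjusted p = 0.277) that did not pass the test. Nmnat1 was called in both comparisons under median-ratio scaling (-0.41 and -0.52, adjusted p = 0.0269 and 0.00338 by limma), quantile normalization (-0.43 and -0.55, adjusted p = 0.0137 and 0.00161) and array weights (-0.24 and -0.38, adjusted p = 0.0291 and 0.00102), and against non-cachectic mice also without the 4 libraries with the fewest genes (adjusted p = 0.00393) and in the fit of only those groups (adjusted p = 0.0113). Against non-cachectic mice these settings called 1041, 1255, 5519, 3700 and 3302 of all 13578 genes, in that order, where the main fit called 794. At 8 weeks the cachectic mice ranged from 6.76 over a median of 9.92 to 15.1 TPM, and 6 of 7 lay below all control mice (15.0 to 17.5 TPM). Nmnat1 shares exonic bases with Tmem274 on the other strand.

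Nmnat3 (chr9:98287435-98420438), the adenylyl transferase assigned to mitochondria, and Nadk2 (chr15:9071260-9110891), which makes NADP in mitochondria, showed no difference that passed the test at 6 weeks. Nmnat3 ranged from 2.08 to 4.79 TPM in cachectic and from 2.25 to 6.82 TPM in control mice, with a log2 difference of -0.07 (SE 0.239, adjusted p = 0.901 by limma). Nadk2 ranged from 26.3 to 28.2 TPM in cachectic and from 23.2 to 29.6 TPM in control mice, with a log2 difference of 0.03 (SE 0.208, adjusted p = 0.944). At 8 weeks Nadk2 was 9.16 TPM in cachectic mouse 3 and 19.9 to 31.5 TPM in the other 6.

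Nnmt (chr9:48591877-48605153), which methylates nicotinamide and is abundant in liver, had 4.74, 3.66, 2.86, 2.76 and 35.6 TPM in cachectic mice at 6 weeks, against 2.25, 3.78, 4.14, 2.10 and 3.04 TPM in control mice. The value of 35.6 TPM is that of cachectic mouse 5, one of the 4 mice with the highest liver markers, where the 10 markers summed to 5494 TPM. The log2 difference of 0.77 (SE 0.443, adjusted p = 0.337 by limma) did not pass the test and was 0.16 without those mice. In control mice at 2 weeks, mice 2, 4 and 5 with high liver markers had 12.8, 9.80 and 14.8 TPM of Nnmt, and mice 1 and 3 had 1.54 and 2.81 TPM. At 8 weeks cachectic mice ranged from 4.12 over a median of 5.23 to 15.8 TPM, and all 7 lay above the control mice (1.62 to 4.11 TPM). Only 2 of the 7 cachectic mice lay above all non-cachectic mice (1.92 to 7.99 TPM). The highest, mouse 3 with 15.8 TPM, had a summed TPM of 6 adipocyte markers of 2436, and the next, mouse 2 with 10.4 TPM, had a liver marker sum of 2395 TPM. The median adipocyte sum was 577.3 TPM in cachectic and 168.6 TPM in control mice at 8 weeks. The part of these cells in the values of Nnmt was not tested.

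At 2 weeks, 3 of the 9 genes were lower in cachectic than in control mice, where 29.3% of all genes were called and the median log2 difference of all genes was -0.42. These were Nmrk1 (-0.47, adjusted p = 0.034 by limma), Nadk2 (-0.75, adjusted p = 0.0125) and Cd38 (-0.73, adjusted p = 0.0196), and 5 of the 9 genes had an unadjusted p under 0.05. Both the 2 cachectic libraries with few genes and the 3 controls with high liver markers are in this comparison. Without the former libraries 0 of the 9 genes were called, and without the latter mice also 0. Nmrk1 was highest in controls 2, 4 and 5, with 3.44, 2.27 and 4.57 TPM, and its difference was 0.07 without them. The count was 0 without cachectic mouse 3 or 4 or control mouse 2, 1 without control mouse 5, and 5 or 6 without cachectic mouse 2 or 5 or control mouse 1. Against non-cachectic mice at 2 weeks 0 of the 9 genes were called, as were 0.0% of all genes, with 2 of the 9 genes and 1709 of all genes at an unadjusted p under 0.05, and Dunn's test called 0. That count was 3 without non-cachectic mouse 5 and 1 without cachectic mouse 2.

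**Figure D4:**
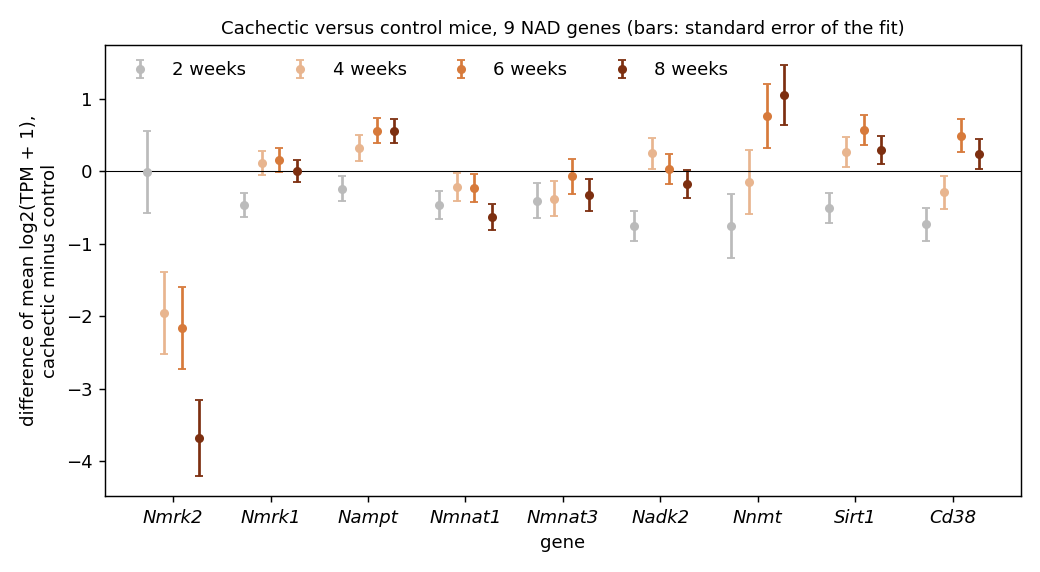
Difference of mean log2(TPM + 1), cachectic minus control, for the 9 genes at 2, 4, 6 and 8 weeks, with the standard error of the fit as bars. Nmrk2 goes from -0.01 at 2 weeks to -3.68 at 8 weeks, while the other 8 genes stay between -0.75 and 1.05.

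The wider pathway was read from a list of 56 further genes, of which 55 are in the table and 49 passed the filter. At 2 weeks 25 of the 49 were lower and 0 higher in cachectic than in control mice, beside 29.3% of all genes called. The median log2 difference of the 49 genes was -0.58, beside -0.42 over all genes. The 25 genes included 7 of 7 tested for synthesis from tryptophan and 10 of 17 ADP-ribosyl transferases. Apart from Afmid, these tryptophan genes had medians under 1 TPM in control mice at 6 weeks. The count of called genes was 0 without the 4 libraries with few genes and 0 without the 4 mice with high liver markers. The median log2 difference was then -0.09 and -0.29. Leaving out single mice gave 4 and 8 without cachectic mouse 3 or 4, 38 without cachectic mouse 2, and 0, 13 and 11 without control mouse 2, 4 or 5. Against non-cachectic mice 0 were called at 2 weeks (0.0% of all genes), with 5 at an unadjusted p under 0.05, and Dunn's test called 0; 1 was called without cachectic mouse 2 or non-cachectic mouse 5. Between non-cachectic and control mice 8 of the 49 were lower, beside 4.43% of all genes, 7 of them in the tryptophan route, and the count was 0 without the mice with high liver markers and 5 without control mouse 2.

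At 4 weeks 0 of the 49 were called in cachectic mice against either group, beside 0.0221% and 0.0295% of all genes, with 3 and 6 at an unadjusted p under 0.05, and Dunn's test called 0. At 6 weeks 3 rose and 0 fell against control mice, and the same numbers held against non-cachectic mice, beside 6.79% and 5.85% of all genes called, so the share of the 49 was close to that of all genes. In each comparison 10 of the 49 had an unadjusted p under 0.05, and Dunn's test called 0. The median log2 difference of the 49 genes was 0.21 against control mice, beside 0.17 over all genes. At 8 weeks 3 rose and 4 fell against each group, where the calls over all genes were 14.8% for control and 12.9% for non-cachectic mice. The share of the 49 was again close to that of all genes. The genes named below are thus given as single genes and not as a result about the pathway or its groups.

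**Figure D5:**
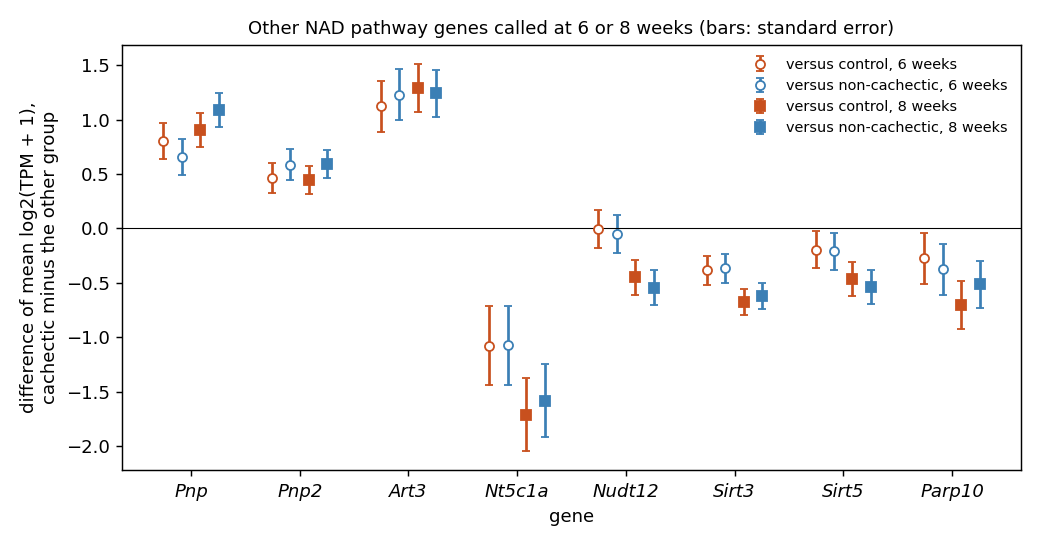
Difference of mean log2(TPM + 1) of the 8 further NAD pathway genes called at 6 or 8 weeks, cachectic minus control (orange) or minus non-cachectic mice (blue), at 6 weeks (open circles) and 8 weeks (filled squares), with standard errors. Pnp, Pnp2 and Art3 lie above 0 in all 4 comparisons, Nt5c1a below -1.07, and Nudt12 is near 0 at 6 weeks.

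Within the nucleoside and nucleotide salvage group (6 genes tested), Pnp and Pnp2 rose. Pnp, a phosphorylase that splits nicotinamide riboside among other nucleosides, had 33.9 ± 6.89 TPM in cachectic and 18.8 ± 2.25 TPM in control mice at 6 weeks (SD, n = 5 each), a log2 difference of 0.81 (adjusted p = 0.00107 by limma). At 8 weeks it had 39.7 ± 4.63 TPM (n = 7) and 20.7 ± 1.70 TPM (n = 5), a log2 difference of 0.90 (adjusted p = 2.62e-05). All cachectic mice lay above all controls at both times. The 6-week call was lost after median-ratio scaling (0.62, adjusted p = 0.191) and, against non-cachectic mice, without cachectic mouse 1 or non-cachectic mouse 5 (adjusted p = 0.0679 and 0.053). Pnp2, a near copy of Pnp whose reads may be split between them, rose by 0.46 at 6 weeks (adjusted p = 0.032) and by 0.44 at 8 weeks (adjusted p = 0.0131) from a low level of 1.08 and 0.983 TPM in controls. Its 6-week call was lost after median-ratio scaling (0.33, adjusted p = 0.292), without cachectic mouse 1 or 2 or control mouse 1, 2 or 4 (adjusted p of up to 0.179), and against non-cachectic mice without cachectic mouse 1 (adjusted p = 0.051).

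Nt5c1a, a cytosolic nucleotidase of muscle, had 3.14 ± 2.16 TPM in cachectic (n = 7) and 10.9 ± 1.89 TPM in control mice (n = 5) at 8 weeks. The groups did not overlap, and Nt5c1a fell by 1.71 on the log2 scale (adjusted p = 0.000177 by limma). At 6 weeks all 5 cachectic mice (1.89 to 6.44 TPM) also lay below all controls (7.99 to 12.2 TPM), with a log2 difference of -1.08 that did not pass the test (adjusted p = 0.0579).

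Of the 6 other sirtuins, Sirt3 and Sirt5 fell at 8 weeks, and no other sirtuin of the list was called at 4, 6 or 8 weeks. Both encode mitochondrial deacylases. Sirt3 had 24.3 ± 4.79 TPM in cachectic and 38.7 ± 2.00 TPM in control mice, a log2 difference of -0.67 (adjusted p = 5.95e-05 by limma), and all 7 cachectic mice lay below all controls. Sirt5 had 14.03 ± 4.31 and 19.1 ± 2.57 TPM, a log2 difference of -0.47 (adjusted p = 0.0357). That call was lost without cachectic mouse 1, 3 or 6 or control mouse 1, 2 or 4, and without mouse 3, the library with few genes, the difference was -0.33 (adjusted p = 0.112).

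Among 17 ADP-ribosyl transferases tested, Art3 rose at 6 and 8 weeks and Parp10 fell at 8 weeks against control mice. Art3, a muscle-expressed member of the family, had 90.6 ± 19.6 TPM in cachectic and 40.4 ± 3.64 TPM in control mice at 6 weeks (n = 5 each), a log2 difference of 1.12 (adjusted p = 0.00139 by limma). At 8 weeks it had 101.4 ± 28.9 TPM (n = 7) and 39.3 ± 5.61 TPM (n = 5), a log2 difference of 1.29 (adjusted p = 2.40e-05). Parp10, a mono-ADP-ribosyl transferase, had 7.00 ± 2.56 and 11.2 ± 0.718 TPM at 8 weeks, a log2 difference of -0.70 (adjusted p = 0.0197). Its call was lost without cachectic mouse 3 (-0.48, adjusted p = 0.0687) or control mouse 3 (adjusted p = 0.0517). Nudt12, which hydrolyzes NADH, was called only against non-cachectic mice at 8 weeks, with 3.34 ± 1.03 TPM against 5.16 ± 0.379 TPM and a log2 difference of -0.55 (adjusted p = 0.0161). Against control mice the value was -0.45 (adjusted p = 0.0514).

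The 7 genes tested for synthesis from tryptophan, the 2 of the Preiss-Handler route, the 4 transporters, the 2 aldehyde oxidases and Bst1 had no call at 4, 6 or 8 weeks in cachectic mice against either group. Nadk, Nnt and Nudt13 were also not called in these comparisons. Of the tryptophan genes tested, Afmid had a median of 1.65 TPM in control mice at 6 weeks. The others had medians of 0.029 to 0.69 TPM there, below the 1 TPM of the filter. Whether they passed the filter through the mice with high liver markers was not tested. Their lack of a call thus says little about muscle.

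The genes whose pattern was most like that of Nmrk2 over the 12 condition means of log2(TPM + 1) were Apln, Casq1, 5930412G12Rik, Tmx2 and Fahd1, with Pearson r of 0.98, 0.98, 0.97, 0.97 and 0.97. Over the deviations of the 62 mice from these means, their r was 0.48, 0.68, 0.29, 0.79 and 0.44. Apln encodes the peptide apelin and Casq1 the calcium-binding calsequestrin of fast fibers. At 6 weeks Casq1 had 644 TPM in control and 453 TPM in cachectic mice as means, and Apln had 4.37 and 1.15 TPM. These likenesses include the cachectic means by which Nmrk2 was chosen and are given as a description.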

How the data were processed

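RNA-seq was done on diaphragm muscle of 62 mice. The authors extracted RNA with Trizol, made TruSeq libraries, and trimmed and aligned NovaSeq reads in CLC Genomics Workbench to mouse genome GRCm38 (mm10). The values they deposited are TPM. Columns of all 62 mice were matched to the labels by name. TPM carry no counts, so depth and counting error are unknown, and TPM are relative to the total of a library, so genes can shift together.

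The deposited TPM were taken as log2(TPM + 1). Of 47643 genes, 23900 had a value above 0 in some mouse, and a minimum of 1 TPM in 5 or more mice left 13578 for testing. R 4.3.3 with limma 3.58.1 estimated a mean per condition for all 12 conditions together, with a prior spread that follows the mean level, and Benjamini-Hochberg adjustment ran over all genes of a contrast. Genes were called at an adjusted p under 0.05. Dunn's test called 0 of 13578 genes in cachectic versus control mice at 2, 4 and 6 weeks. A count of 0 by that test there does not set listed genes apart from all genes. At 8 weeks it called 5 of the 49 other pathway genes against control mice and 6 against non-cachectic mice. Against control mice it then called 1121 of all genes. Differences are on the log2(TPM + 1) scale, which understates changes of low genes. The p-values set a difference against the spread between mice of a condition, pooled over all 12 conditions. Spread among cachectic mice thus enters comparisons of the other groups.

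The 9 genes and the gene lists were chosen with earlier results of these data known. Genes named with values are the 9 genes, the listed pathway genes with an adjusted p under 0.05 at 6 or 8 weeks, and the 5 genes most like Nmrk2 over condition means. Other listed genes are named where they had no call, and Atcayos, Gm16145 and Tmem274 for their position. Positions are from GENCODE M21 on GRCm38, matched by symbol. Promoters are from RefSeq (GRCm38.p6), where Nadk2 and Nnmt had no entry. Alternative settings were no filter, a pseudocount of 0.1, median-ratio scaling, quantile normalization, array quality weights, a replicate block, fits of only the groups compared, Dunn's test, liver markers as a covariate, a call that also needs a log2 difference over 1, and leaving out the libraries that stood apart or each mouse. Plots were made in Python 3.11.15 (matplotlib 3.10.9).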

Additional observations from a re-analysis of the deposited data

Results flagged for a closer look

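Among 108 sets of values, 9 genes in 12 conditions, 12 held a mouse far from the others of its condition by Dixon's ratio, and chance alone flags about 1 in 20 sets, which is 5.4 of 108. Nmrk2 was high in cachectic mouse 2 at 6 weeks (34.5 TPM, others 16.1 to 19.98) and in cachectic mouse 3 at 8 weeks (71.5 TPM, others 1.36 to 14.5), whose library lists few genes. Sirt1 was high in cachectic mouse 2 at 4 weeks (11.4 TPM, others 5.25 to 6.15), and Nnmt in cachectic mouse 5 at 6 weeks (35.6 TPM, others 2.76 to 4.74), which has high liver markers. Nampt was high in control mouse 5 at 2 weeks (105.6 TPM) and in non-cachectic mouse 3 at 8 weeks (111.0 TPM), the mouse with the lowest Nmrk2 of that condition (47.1 TPM). Non-cachectic mouse 5 at 2 weeks, a library with few genes, was low in Nmnat1 (7.35 TPM, others 14.6 to 16.6) and Nadk2 (9.39 TPM, others 22.8 to 27.1). Nadk2 was high in non-cachectic mouse 1 at 6 weeks (29.8 TPM) and mouse 2 at 8 weeks (28.9 TPM). At 4 weeks Nmnat3 was low in control mouse 4 (3.43 TPM) and Cd38 was high in control mouse 5 (13.4 TPM).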

How the results depend on the processing

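The log2 difference of Nmrk2 at 6 weeks ranged from -2.39 to -2.09 against control and from -2.71 to -2.43 against non-cachectic mice over 11 alternatives, and it lost the call only under Dunn's test (-2.16 and -2.48). Without 1 mouse at a time it lay between -2.33 and -1.98 and between -2.65 and -2.37. The count of the 9 genes called at 6 weeks, 2 in both comparisons, was 1 without the filter or with a log2 difference over 1 and 0 under Dunn's test. It was 5 with array weights and 4 without the 4 libraries with the fewest genes, and in fits of only the groups compared it was 4 for control and 5 for non-cachectic mice. These settings also called more of all 13578 genes than the 922 and 794 of the main fit. The counts were 6565 and 5519 with array weights, 4233 and 3700 without the 4 libraries, and 4030 and 3302 in the 2-group fits. Against non-cachectic mice the count of the 9 genes was also 1 with a pseudocount of 0.1, the liver covariate or without the 4 mice with high liver markers, and it was 1 to 2 without 1 mouse in both comparisons. Under median-ratio scaling and quantile normalization it was 2 as well, but of Nmrk2 and Nmnat1 in place of Nmrk2 and Nampt. At 4 weeks the count of 0 became 1 with array weights or without the 4 libraries, and 0 to 1 without 1 mouse against non-cachectic mice. At 2 weeks the count of 3 against control mice became 0 under median-ratio scaling, quantile normalization, array weights, the 2-group fit, Dunn's test, a log2 difference over 1 or without either set of 4 libraries, and 0 to 6 without 1 mouse; against non-cachectic mice it was 0 to 3 without 1 mouse.

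The count of 25 other pathway genes called against control mice at 2 weeks became 16 under median-ratio scaling, 13 under quantile normalization, 5 with array weights, 15 with the liver covariate, 8 with a log2 difference over 1, 0 in the 2-group fit, under Dunn's test or without either set of 4 libraries, and 0 to 38 without 1 mouse. The count of 8 between non-cachectic and control mice became 18 with array weights, 0 with the liver covariate, in the 2-group fit, under Dunn's test or without the mice with high liver markers, and 5 to 9 without 1 mouse; that of 0 against non-cachectic mice was 0 to 1 without 1 mouse. The count of other pathway genes called at 6 weeks, 3 in both comparisons, was 5 and 3 under median-ratio scaling, 7 and 6 under quantile normalization, 26 and 22 with array weights, 14 and 15 without the 4 libraries, 17 and 15 in the 2-group fit, 0 under Dunn's test and 1 with a log2 difference over 1. At 8 weeks the count of 7 became 14 and 14, 14 and 17, 19 and 19, 18 and 16, and 4 and 4 under the first 5 of these, and 2 and 3 with a log2 difference over 1. Without 1 mouse these counts were 2 to 5, 1 to 4, 6 to 12 and 7 to 10. At 6 weeks array weights, leaving out the 4 libraries and the 2-group fit also raised the calls over all genes, as given above. At 8 weeks the first 5 settings called 3262, 3431, 4921, 4697 and 552 of all genes against control mice, where the main fit called 2005. The sign turned for Nmrk1 at 2 weeks under quantile normalization (0.0449) and without the mice with high liver markers (0.0728), for Nnmt against non-cachectic mice at 6 weeks without those mice (-0.0415; -0.0415 to 0.780 without 1 mouse), and for the 4 to 6 week change of Nmrk2 (-0.765 to 0.271 without 1 mouse). The cause was not tested. Over 834 alternative values of single genes, 697 kept their direction and side of the threshold, 107 lost a call, 24 gained one and 6 turned sign.

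With the replicate block, 2 of the 9 genes were called in each 6-week comparison, and Nmrk2 kept -2.16 (adjusted p = 0.00772 by limma) and -2.48. Deviations of same-numbered mice correlated at -0.06 to 0.20 between cachectic and control mice at 6 weeks and at -0.03 to 0.26 at 8 weeks, where 4 of 5 pairs were over 0.1, and no comparison had all 5 pairs over 0.1, so the numbers do not pair the mice. Median-ratio scaling moved the split of all genes called against control mice at 6 weeks from 763 higher and 159 lower to 471 and 540, and the median of all genes from 0.17 to 0.01. TPM carry no depth, so low genes such as Nmrk1 cannot be given a counting error.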
